A study of Saccharomyces cerevisiae with 7 samples.

Results

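Genes whose start codon is preceded by a T at position -3 were followed in ribosome-bound mRNA of budding yeast. A column that the authors deposited lists the 20 bases upstream of the start codon, ending at position -1, for 5691 genes. The 132 genes named RPS or RPL with a digit were left out, and of the remaining 5559 genes 620 (11.2%) had T at -3. Another 3346 (60.2%) had A, 1097 (19.7%) had G and 496 (8.92%) had C there. Among the 132 genes left out, 2 had T and 113 had A at -3.

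The bases just before a start codon, the Kozak context, affect how readily a scanning small ribosomal subunit stops at that codon. In budding yeast A is the preferred base at -3, and a U, written T in DNA, makes a weak context. Rps26 is a protein of the small subunit near the mRNA exit channel, where the bases upstream of the start codon lie during initiation.

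Minus_Rps26 (3 libraries) and Plus_Rps26 (3 libraries) came from one strain, BY4741 (S288C) with RPS3 and RPS26A each placed behind the GAL1 promoter, RPS26B replaced by KanMX6, and a TAP-tagged Rps3 on plasmid pCM189. Galactose drives and glucose shuts off the GAL1 promoter, and doxycycline keeps the plasmid gene silent. Cultures growing on galactose, with doxycycline at 0.2 µg/ml, were washed and moved to glucose medium for 4 h. Minus_Rps26 is the tagged ribosomes caught on IgG beads, labelled as lacking Rps26. Plus_Rps26 is the untagged ribosomes of the bead flowthrough, labelled as containing Rps26 and collected on sucrose gradients. Rps3_TAP (1 library) is bead-purified ribosomes of BY4741 with a chromosomal Rps3-TAP, which carries neither GAL1 construct nor the RPS26B deletion. No doxycycline and no time after a medium shift are listed for Rps3_TAP. Cycloheximide at 100 µg/ml was added before every harvest. The study asks whether ribosomes with and without Rps26 hold different mRNAs according to the start context. Tagged and untagged ribosomes were purified in different ways, so that the ribosome class and the purification cannot be told apart.

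Library totals were 9605899 to 21405499 counts over 6341 features. RPS26A had 44.2, 25.4 and 35.1 CPM (counts per 1000000, scaled by edgeR's trimmed-mean factors) in Minus_Rps26, 48.2, 111 and 96.9 CPM in Plus_Rps26 and 10140 CPM in Rps3_TAP. RPS26A mRNA was therefore low in both depletion groups. Its log2 fold change between Minus_Rps26 and Plus_Rps26 was -1.30 (SE 0.35, adjusted p = 0.0392 by edgeR's quasi-likelihood test). The deleted RPS26B had 13, 15 and 17 counts in Minus_Rps26, 10, 142 and 11 counts in Plus_Rps26 and 14293 counts in Rps3_TAP, so Plus_Rps26 replicate 2 held more of it than the other depletion libraries. RPS3 had 1451, 3564 and 2087 CPM in Minus_Rps26, 348, 6304 and 8332 CPM in Plus_Rps26 and 7824 CPM in Rps3_TAP, which sets Plus_Rps26 replicate 1 apart from the other 2 of its group. Counts without either library are given with the results.

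The contexts printed here are those of the genes the results turn on, in lower case, 5′ to 3′, ending at -1, with the T at -3 in capitals. The genes with the largest rises in Minus_Rps26 that met the rule for named genes had these contexts.
SMC4: caaccaacagaatatatTtg
YLR419W: ctttcattaatttttgaTaa
SEN1: agcgcatctgtttattaTaa
NPR3: tgggtagaaactaagctTca
TOM1: ttgattgaaaatatataTtc
TAF2: aggataaataggtggacTtc
GCN2: ttaacacatactatgtaTaa
FMP27: ctttacctcggtatatgTag

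The genes with the largest falls by the same rule had these contexts.
FAU1: tatatagctacaaaaaaTta
LDB18: cctctaccaaaggaagtTtg
TOA2: gaagataacagtaaggaTaa
WIP1: acagttcctaacattctTcc
FPR2: tttacagtaattgagtcTcg
EMP47: catcagggaatttgtatTtt
NMD4: tctcctcaaaaagcaggTta
ERV1: ttcaatgaatacaaagcTtc

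The genes with the most ribosome-bound mRNA per kb, the most abundant ones with A at -4, -2 and -1 (GSP1, PMP1 and MTC7) and those with G at -4 (ARC1 and RPN13, besides NMD4 above) had these contexts.
MFA2: aacaataactaccaaccTta
STM1: gcatacacattttattcTca
GSP1: taaactcatttatattaTaa
RRS1: atacctatatactattcTag
YJL133C-A: acagtaaataaacgtatTaa
PMP1: gcacttttaatctatcaTaa
MTC7: catcatggcatgggataTaa
ARC1: atatagagtttcaagagTca
RPN13: taaattttaaaagagtgTtg

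The bases next to the T differed from those next to an A. T stood at -5 in 38.4% of the T contexts and in 24.9% of the A contexts, and A stood at -5 in 28.4% and 38.0%. At -4, T was found in 30.3% of T contexts and 20.6% of A contexts, and at -2 in 32.3% and 22.8%. G at -1 was found in 23.2% of T contexts and 13.7% of A contexts. A at -4, -2 and -1 together occurred in 41 T contexts (6.61%), against 9.95% of A contexts, and 21.3% of T contexts had no A at -5, -4, -2 or -1, against 11.2% of A contexts. Contexts with T at -3 therefore also held fewer of the A bases that mark the yeast consensus at neighbouring positions. The A and T content from -20 to -4 was 65.8% in both classes, with less A and more T in the T contexts at several positions. At -10, for instance, A stood in 32.7% of T contexts and 39.6% of A contexts, and T in 31.3% and 27.2%. G at -4 occurred in 74 T contexts (11.9%) and in 14.97% of A contexts.

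An upstream ATG, which a scanning subunit would meet first, lay between -20 and -4 in 47 T contexts (7.58%) and in 130 A contexts (3.89%). In 11 of the T genes it was in frame with the annotated start, against 19 of the A genes. Systematic names, which mark genes without a standard name, were carried by 130 T genes (21.0%) and 390 A genes (11.7%). The 20 bases overlapped another annotated gene in 16 of 619 T genes with a position (2.59%) and 27 of 3343 A genes (0.808%). The median coding length was 1281 bases for T genes and 1215 bases for A genes. BSC5 and BUL3 shared one context letter for letter, and the subtelomeric genes YFL066C, YHL050C and YPR204W shared another, so that these members are not independent.

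The level of ribosome-bound mRNA was lower for T genes than for A genes in each of the 7 libraries. The median level of T genes was 27.9, 29.25 and 31.2 CPM per kb of coding length in Minus_Rps26, 25.7, 22.5 and 21.2 in Plus_Rps26 and 22.5 in Rps3_TAP. The median level of A genes was 41.4, 43.5 and 43.7 CPM per kb in Minus_Rps26, 42.2, 38.6 and 38.65 in Plus_Rps26 and 37.5 in Rps3_TAP. The ratio of the T median to the A median was 0.673, 0.672 and 0.714 in Minus_Rps26, 0.609, 0.582 and 0.549 in Plus_Rps26 and 0.599 in Rps3_TAP. Over genes of all lengths together, the ratio in each Minus_Rps26 library was above that in each Plus_Rps26 library. No p is given, since genes are not replicates. C and G genes lay between or near them: the mean of the library medians in Minus_Rps26 was 29.45 ± 1.67 CPM per kb for T, 30.6 ± 1.29 for C, 35.9 ± 1.86 for G and 42.9 ± 1.28 for A genes (SD, n = 3). In Plus_Rps26 it was 23.1 ± 2.31 for T, 23.9 ± 2.53 for C, 29.7 ± 2.43 for G and 39.8 ± 2.04 for A genes (SD, n = 3). The mean of every class was thus higher in Minus_Rps26, and C genes lay close to T genes in both groups.

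**Figure D1:**
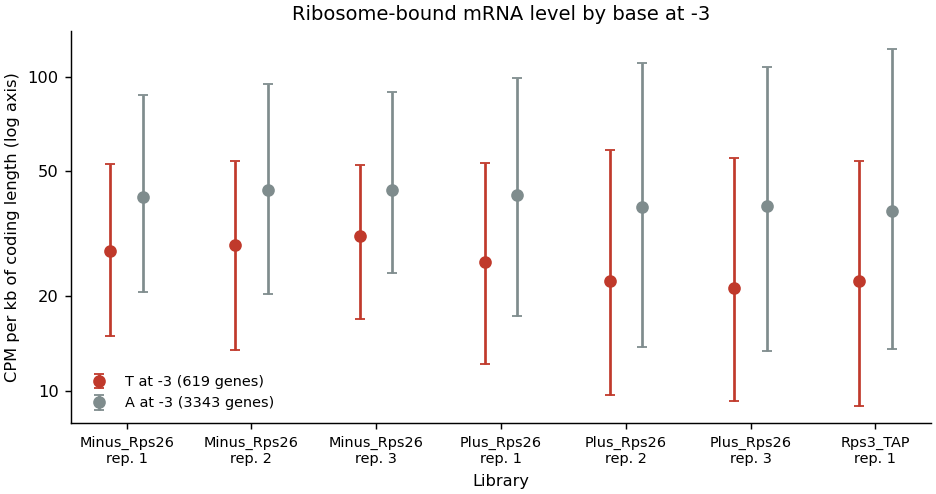
Median level of ribosome-bound mRNA (points, CPM per kb of coding length, log axis) with lower and upper quartiles (bars) for genes with T and with A at -3 in the 7 libraries. The T median is 0.549 to 0.714 of the A median, and the quartile ranges overlap in every library.

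The gap between T and A genes was widest among short genes. Genes were split by coding length into 4 bins of equal size. In the shortest bin (51 to 747 bases) the T median was 27.6, 25.5 and 25.4 CPM per kb in Minus_Rps26, 28.6, 31.7 and 30.8 in Plus_Rps26 and 35.5 in Rps3_TAP. The A median of that bin was 70.35, 62.95 and 54.6 CPM per kb in Minus_Rps26, 88.45, 100.5 and 87.1 in Plus_Rps26 and 123 in Rps3_TAP. In the longest bin (from 1902 bases) the T median was 22.6, 25.65 and 32.6 CPM per kb in Minus_Rps26 and 11.9 in Rps3_TAP, against A medians of 26.1, 31.3 and 38.5 in Minus_Rps26 and 14.97 in Rps3_TAP. Summed over genes, T contexts took 5.96% ± 0.45 of all protein-coding counts in Minus_Rps26 and 3.83% ± 0.80 in Plus_Rps26 (SD, n = 3 each), and 3.03% in Rps3_TAP (95% Wilson interval 3.02 to 3.04%, which covers counting error only). The share of A genes was 56.3% ± 1.44 in Minus_Rps26, 47.9% ± 3.37 in Plus_Rps26 and 52.5% in Rps3_TAP. All contexts together, without the RPS and RPL genes, took 80.5% ± 2.81 in Minus_Rps26, 64.9% ± 5.65 in Plus_Rps26 and 66.9% in Rps3_TAP, so the higher share in Minus_Rps26 than in Plus_Rps26 was common to T genes, A genes and all contexts.

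The most abundant T genes per kb were short. MFA2, which encodes the mating pheromone a-factor, had a mean of 4595 ± 1618 CPM per kb in Minus_Rps26 and 6067 ± 2624 in Plus_Rps26 (SD, n = 3 each), and 6910 in Rps3_TAP. STM1, a ribosome-associated protein that protects idle ribosomes, had 1943 ± 103 CPM per kb in Minus_Rps26, 2746 ± 558 in Plus_Rps26 and 3693 in Rps3_TAP. GSP1, the yeast Ran GTPase of nuclear transport, had 1096 ± 64.3 CPM per kb in Minus_Rps26, 1639 ± 536 in Plus_Rps26 and 2675 in Rps3_TAP. STM1 was lower in every Minus_Rps26 library than in any Plus_Rps26 library, while the libraries of MFA2 and GSP1 overlapped. RRS1, a factor of 60S subunit assembly, had 800.1 ± 111 CPM per kb in Minus_Rps26, 881 ± 70.0 in Plus_Rps26 and 870.5 in Rps3_TAP. YJL133C-A, a small mitochondrial protein, and PMP1, a small regulator of the plasma membrane proton pump, completed the top of the list. None of these 6 genes passed the test between Minus_Rps26 and Plus_Rps26 (adjusted p = 0.0831 to 0.732, edgeR), and the log2 fold changes of MFA2 (-0.40), RRS1 (-0.14) and PMP1 (-0.26) were 0.50, 0.38 and 0.73 with the length trend removed.

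Between Minus_Rps26 and Plus_Rps26, 588 of the 620 T genes passed the filter on low counts and were tested. Of these, 57 (9.69%) were called higher and 21 (3.57%) lower in Minus_Rps26 at an adjusted p under 0.05 (edgeR's quasi-likelihood test, Benjamini-Hochberg over 5668 features). Of all features tested, 8.1% were called higher and 7.9% lower. Of 3267 A genes tested, 257 (7.87%) were called higher and 233 (7.13%) lower. The share of T genes called higher was thus near that of all features, and the share called lower was below it. Of 479 C genes 51 were called higher and 24 lower, and of 1060 G genes 91 were called higher and 52 lower. The test was made per gene, and the difference in these shares between classes was not tested. The libraries of the groups did not overlap in 148 T genes that were higher and 66 that were lower, and this held for 21% and 17.3% of all features tested. Leaving out Minus_Rps26 replicate 2 or 3, or Plus_Rps26 replicate 2 or 3, ended every call, on T genes and on all other features alike. Without Plus_Rps26 replicate 1 the T counts were 145 higher and 85 lower, beside 1272 and 1223 of all 5717 features. Without both libraries of replicate 1 the T counts were 159 and 97, beside 1387 and 1284 of all 5684 features. The T genes' median log2 ratios within replicates 1, 2 and 3 were 0.07, 0.15 and 0.25. DESeq2 called 88 T genes higher and 53 lower, beside 700 and 852 of all 5775 features with an adjusted p. The authors' deposited table called 93 of 581 T genes higher and 63 lower in Minus_Rps26, beside 13.5% and 15.7% of all its features with an adjusted p.

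The median log2 fold change (Minus_Rps26 over Plus_Rps26) was 0.15 for tested T genes, 0.01 for A genes, 0.18 for C genes, 0.12 for G genes and 0.03 for all features. The T median thus stood 0.14 above the A median and 0.0027 above that of C and G genes together. Taken as the log2 ratio of the 2 libraries that carry the same replicate number, the difference between the T and A medians was 0.09, 0.12 and 0.16 (mean 0.12 ± 0.04, SD, n = 3). It had the same sign in all 3 ratios; the labels do not say that equal numbers mark one culture.

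Coding length moved with the fold change in both classes. T genes called higher had a median coding length of 3231 bases, and 55 of the 57 lay in the longest bin. T genes called lower had a median of 639 bases, and 20 of the 21 lay in the 2 shorter bins. From the shortest to the longest bin, the median log2 fold change was -0.48, -0.13, 0.10 and 0.87 for T genes, and -0.65, -0.20, 0.10 and 0.84 for A genes. The order was therefore the same in both classes, and the difference between T and A within bins was 0.17, 0.068, -0.0024 and 0.031. Within 4 bins of level per kb the difference was 0.0055, -0.069, -0.014 and -0.033, from the lowest to the highest, a split chosen after the values were seen. When the trend of counts with coding length was taken out of every library, edgeR called none of the 5519 features tested, T genes included. An unadjusted p under 0.05 (edgeR) was then found for 92 of 587 T genes, 606 of 3256 A genes and 1036 of all features. The difference between the T and A medians was 0.056.

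**Figure D2:**
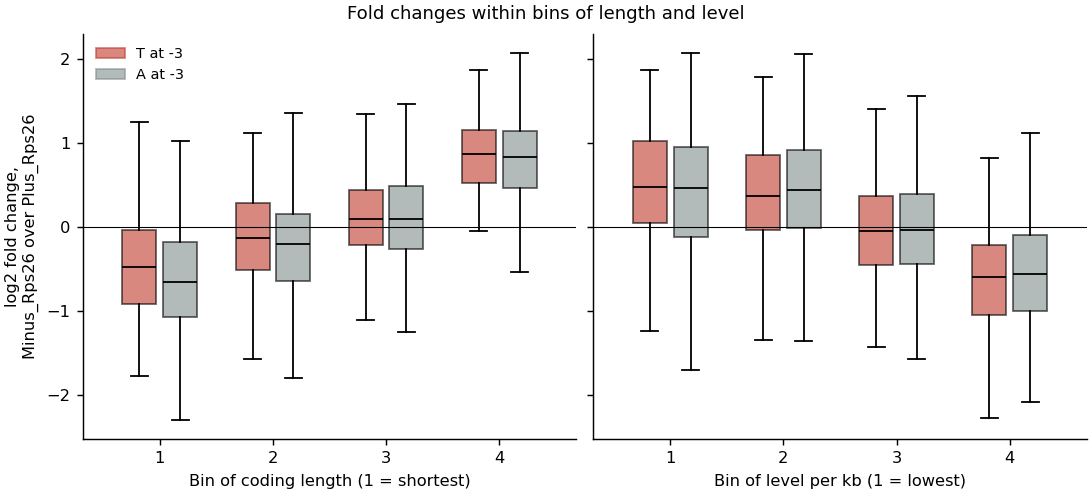
Log2 fold changes of Minus_Rps26 over Plus_Rps26 for tested genes with T and with A at -3, in 4 bins of coding length (left) and of level per kb (right). Boxes are quartiles with the median, whiskers follow the usual box plot convention, outliers are not drawn, and the medians of T and A genes climb together with length, from below 0 in the shortest bin to 0.87 and 0.84 in the longest.

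**Figure D3:**
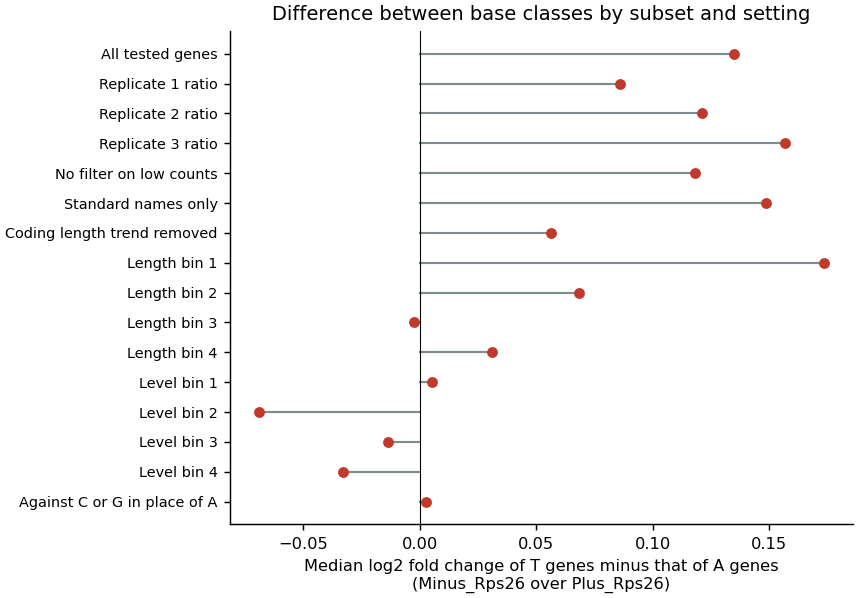
Median log2 fold change of T genes minus that of A genes (Minus_Rps26 over Plus_Rps26) for all tested genes, for each replicate's ratio, under other settings and within bins of length and level. The last point sets T genes against C or G genes, and the difference is 0.14 over all tested genes and 0.0027 against C or G genes.

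The 8 T genes with the largest rises, among called genes with at least 10 CPM on average and groups that do not overlap, were all long, with 3441 to 9807 coding bases. SMC4 (chromosome XII, 302243 to 306499, plus strand of R64), a subunit of the condensin complex that compacts chromosomes, had 59.4, 61.9 and 112 CPM in Minus_Rps26, 32.6, 16.9 and 16.5 CPM in Plus_Rps26 and 19.7 CPM in Rps3_TAP. The log2 fold change of SMC4 was 1.82 (SE 0.37, adjusted p = 0.0357, edgeR). SEN1 (chromosome XII, 993434 to 1000129, plus strand), a helicase of transcription termination, had 95.9, 122 and 222.5 CPM in Minus_Rps26, 44.0, 36.3 and 51.6 in Plus_Rps26 and 35.2 in Rps3_TAP. The fold change was 1.74 on the log2 scale (SE 0.35). GCN2 (chromosome IV, 1025070 to 1030049, minus strand), the kinase that phosphorylates eIF2 in amino acid starvation, had 100.1, 124 and 205 CPM in Minus_Rps26, 53.9, 45.8 and 48.5 in Plus_Rps26 and 42.35 in Rps3_TAP. Its log2 fold change was 1.53 (SE 0.32). That the groups stand apart in these genes was fixed by the way they were chosen.

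TOM1 (chromosome IV, 1369790 to 1379596, plus strand), a large HECT ubiquitin ligase, had 251, 327 and 539 CPM in Minus_Rps26, 116, 122 and 122.5 in Plus_Rps26 and 141 in Rps3_TAP. The other members were YLR419W (a putative RNA helicase, log2 fold change 1.78), NPR3 (a negative regulator of TORC1, 1.71), TAF2 (a TFIID subunit, 1.60) and FMP27 (a very large protein of the bridge-like lipid transfer family, 1.51). The adjusted p of each of the 8 genes was 0.0357 by edgeR. In the replicate 1 ratio alone, their log2 values were 0.41 to 1.12. With the length trend removed their log2 fold changes were -0.21 to 0.69, below 0 in TOM1 and FMP27, and none was called.

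The 8 T genes with the largest falls by the same rule had 270 to 1338 coding bases. YPC1, called at a log2 fold change of -2.09 (adjusted p = 0.0409, edgeR), fell further than each of the 8 and was left out because its groups overlap. FAU1 (chromosome V, 553334 to 553969, minus strand), an enzyme of folate metabolism, had 45.5, 36.95 and 23.1 CPM in Minus_Rps26, 51.8, 174 and 110.2 CPM in Plus_Rps26 and 157 in Rps3_TAP. FAU1 had a log2 fold change of -1.68 (SE 0.43, adjusted p = 0.0365, edgeR). TOA2 (chromosome XI, 330166 to 330534, plus strand), the small subunit of TFIIA, had 44.0, 40.2 and 27.5 CPM in Minus_Rps26, 59.35, 146 and 131 in Plus_Rps26 and 355 in Rps3_TAP. TOA2 had a log2 fold change of -1.60 (SE 0.36). In both genes Plus_Rps26 replicate 1 was the lowest of its group and lay closest to the Minus_Rps26 libraries. ERV1 (chromosome VII, 543553 to 544205, plus strand), a sulfhydryl oxidase of the mitochondrial intermembrane space, had 42.7, 35.4 and 24.8 CPM in Minus_Rps26, 50.8, 92.5 and 94.9 in Plus_Rps26 and 85 in Rps3_TAP.

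The remaining members of this group were LDB18 (a dynactin component, log2 fold change -1.66), WIP1 (a kinetochore protein, -1.47), FPR2 (a prolyl isomerase, -1.47), EMP47 (a lectin-like cargo receptor between endoplasmic reticulum and Golgi, -1.34) and NMD4 (a factor of nonsense-mediated decay, -1.24). Adjusted p-values of the 8 genes were 0.0357 to 0.0451 in edgeR. Their log2 ratios in replicate 1 alone were -0.44 to -0.16. With the length trend removed their log2 fold changes were -1.39 to -0.60, each still below 0, and none was called. EMP47 was the longest of the 8 and had the lowest value after that removal, -1.39.

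**Figure D4:**
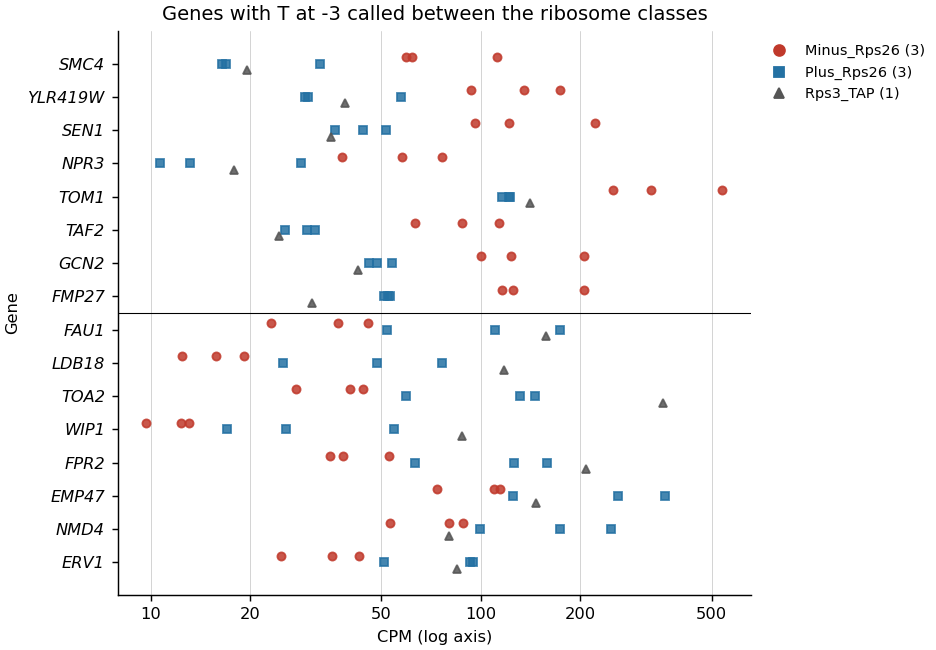
Ribosome-bound mRNA (CPM, log axis) of the 8 T genes with the largest rises (above the line) and the 8 with the largest falls (below it), 1 point per library, among called genes with at least 10 CPM on average and groups that do not overlap. The separation of the 3 Minus_Rps26 from the 3 Plus_Rps26 libraries was part of that choice; SMC4 has 59.4 to 112 CPM in Minus_Rps26 and 16.5 to 32.6 in Plus_Rps26.

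T genes were also divided by their neighbouring bases, with no test between the subsets. The 72 tested genes with G at -4 had a median log2 fold change of 0.04, with 9 called higher and 4 lower. The 38 tested genes with A at -4, -2 and -1 had a median of -0.11, with 4 called higher and 2 lower. The 38 tested genes with an upstream ATG had a median of -0.08, with 7 higher and 1 lower. The 126 tested genes with T at -1 had 0.30, with 11 higher and 3 lower. Of all tested T genes 9.69% were called higher and 3.57% lower, and of all features 8.1% and 7.9%. The 124 tested A genes with an upstream ATG had a median of 0.17, with 12 higher and 6 lower. With the length trend removed, the medians of the 4 T subsets were 0.02, 0.06, -0.03 and 0.05, and that of the A subset was 0.095. ARC1, a cofactor of aminoacyl-tRNA synthetases with G at -4, had 419, 663 and 504 CPM in Minus_Rps26, 688, 412 and 213 in Plus_Rps26 and 525 in Rps3_TAP, so its groups overlapped. RPN13, a proteasomal ubiquitin receptor with G at -4, had a log2 fold change of -0.38 (SE 0.26, adjusted p = 0.301, edgeR), or 0.23 with the length trend removed. MTC7, of unknown function and with A at -4, -2 and -1, had 100.2, 106 and 144 CPM in Minus_Rps26, 124, 294 and 220.5 in Plus_Rps26 and 514 in Rps3_TAP. The T genes with a systematic name had a median level of 14.0 CPM per kb over the libraries, against 30.6 for those with a standard name.

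Of 8 genes that make a mitochondrial and a cytosolic protein from alternative starts, 4 had T at -3 of the annotated start and 2 (ALA1 and GRS1) had A. Whether the annotated start of ALA1 and GRS1 is the upstream one was not examined. In MOD5, CCA1, HTS1 and GLR1 the annotated start is the upstream one, which gives the form with the mitochondrial signal. A start further downstream gives the shorter form, and how that start is reached was not tested. The contexts of these 4 upstream starts, added here because the genes use alternative starts, were as follows.
MOD5: aaatagaaccaaaaatcTtc
CCA1: tataagggctttttttgTgt
HTS1: ttctgctcgtctcttgcTta
GLR1: atattagtttacagaacTtt

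MOD5, a tRNA isopentenyltransferase, had 40.8, 44.5 and 55.0 CPM in Minus_Rps26, 32.55, 24.99 and 22.6 in Plus_Rps26 and 16.8 in Rps3_TAP. Its libraries did not overlap, yet the log2 fold change of 0.80 (SE 0.28) had an adjusted p of 0.066 (edgeR). CCA1, which adds CCA ends to tRNAs, had 96.5, 99.5 and 72.5 CPM in Minus_Rps26 and 103, 128 and 133 in Plus_Rps26, and 76.2 in Rps3_TAP. HTS1, the histidyl-tRNA synthetase, had 186, 242 and 266 CPM in Minus_Rps26, 225, 249 and 296 in Plus_Rps26 and 408 in Rps3_TAP. GLR1, glutathione reductase, had 71.6, 141 and 136 CPM in Minus_Rps26, 79.3, 78.3 and 66.7 in Plus_Rps26 and 156 in Rps3_TAP. The log2 fold changes of CCA1, HTS1 and GLR1 were -0.45 (SE 0.27), -0.16 (SE 0.27) and 0.63 (SE 0.31), and none of the 4 genes passed the test. Counts over a whole gene cannot tell which start a ribosome used.

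The Hog1 pathway passes osmotic stress from membrane sensors through a kinase cascade, and 4 of its 27 listed genes had T at -3. MSB2, a mucin-like sensor, had 38.4, 58.5 and 108.5 CPM in Minus_Rps26 and 35.9, 24.25 and 27.2 in Plus_Rps26, and 32.6 in Rps3_TAP. It was called with a log2 fold change of 1.23 (SE 0.38, adjusted p = 0.0497, edgeR). With DESeq2 size factors in edgeR its adjusted p was 0.0517, and with the length trend removed its log2 fold change was 0.03. STE11, the kinase at the head of the cascade, had a log2 fold change of 0.91 (adjusted p = 0.0639), PTP2, a phosphatase of Hog1, 1.01 (adjusted p = 0.0613) and RCK2, a kinase downstream of Hog1, 0.39 (adjusted p = 0.337) in edgeR's test. Of the 20 A genes in the list, 4 were called higher and 0 lower, beside 8.1% and 7.9% of all features. In this list the median log2 fold change was 0.96 for the 4 T genes and 0.78 for the A genes.

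The Rim101 pathway answers alkaline pH by cleaving a transcription factor, and 2 of its 18 listed genes had T at -3. DFG16, a membrane sensor, had 43.75, 52.3 and 62.0 CPM in Minus_Rps26, 27.7, 22.0 and 21.6 in Plus_Rps26 and 15.8 in Rps3_TAP. It was called higher with a log2 fold change of 1.14 (SE 0.28, adjusted p = 0.0357, edgeR). Of 9 A genes in the list none was called, and of all features 8.1% were called higher. With the length trend removed DFG16 had a log2 fold change of 0.73 (adjusted p = 0.193, edgeR). SMP1, a transcription factor of the MEF2 family, had 70.1, 75.6 and 119.7 CPM in Minus_Rps26, 60.85, 56.8 and 117 in Plus_Rps26 and 13.4 in Rps3_TAP. Its depletion-strain libraries overlapped each other and all lay above Rps3_TAP.

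**Figure D5:**
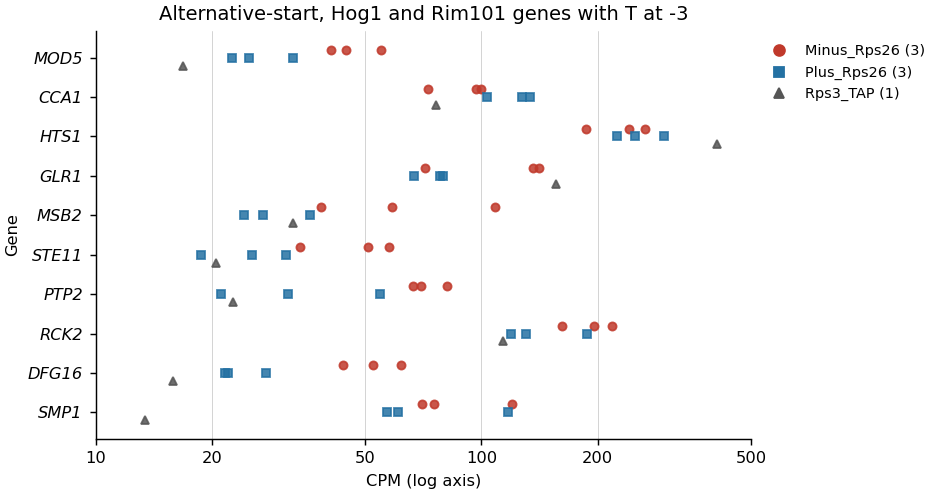
Ribosome-bound mRNA (CPM, log axis) of the T genes among alternative-start genes (MOD5 to GLR1), the Hog1 pathway (MSB2 to RCK2) and the Rim101 pathway (DFG16 and SMP1), 1 point per library. SMP1 has 13.4 CPM in Rps3_TAP, below the 56.8 to 119.7 CPM of the other 6 libraries.

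T genes in the other gene lists were counted, with no test of their number. None of 29 translation initiation factors and none of 10 histone genes had it, and among 21 genes of glycolysis and fermentation PYK2 alone did. It was found in 9 of 47 DNA repair and checkpoint genes (19.1%) and 5 of 28 cell cycle regulators (17.9%), beside 11.2% of all contexts. MEC1, the checkpoint kinase, was the single called gene of these 9, and it is named here after its value was seen. Its log2 fold change was 1.36 (SE 0.30, adjusted p = 0.0357, edgeR). Of the 22 A genes among the DNA repair and checkpoint genes 4 were called higher, beside 8.1% of all features. With the length trend removed no feature was called. Both T genes among 32 nuclear pore genes, NUP170 and NUP1, were called higher, as were 3 of the 16 A genes in that list and 8.1% of all features. NUP170 had 170, 244.5 and 323 CPM in Minus_Rps26, 113, 89.2 and 87.0 in Plus_Rps26 and 83.5 in Rps3_TAP. Its log2 fold change was 1.34 (SE 0.31, adjusted p = 0.0357, edgeR), or 0.08 with the length trend removed.

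Genes of mitochondrial translation and respiration with T at -3 had negative median values. The 6 T genes among 72 mitochondrial ribosomal proteins had a median log2 fold change of -0.60, and the 44 A genes -0.41. None of the 6 T genes and 4 of the 44 A genes were called lower in Minus_Rps26 than in Plus_Rps26, beside 7.9% of all features. MRPL23, the most abundant of the 6, had 40.5, 44.8 and 20.9 CPM in Minus_Rps26, 53.2, 153 and 44.0 in Plus_Rps26 and 217 in Rps3_TAP. QCR10, a small subunit of respiratory complex III, had 24.8, 13.6 and 20.6 CPM in Minus_Rps26, 34.6, 31.3 and 27.6 in Plus_Rps26 and 78.5 in Rps3_TAP. Its log2 fold change was -0.67 (SE 0.32, adjusted p = 0.147, edgeR), or 0.08 with the length trend removed. In the remaining lists the most abundant T genes were not called between Minus_Rps26 and Plus_Rps26. The log2 fold change was 0.52 for HSP104, the heat shock disaggregase, 0.38 for the B-type cyclin gene CLB3 and 0.40 for the glucose sensor gene RGT2. It was -0.16 for ARO9 of aromatic amino acid metabolism, -0.42 for RAD33 of nucleotide excision repair and -0.85 for COS9, a subtelomeric family member. With the length trend removed the sign turned in HSP104 (-0.29), RGT2 (-0.28) and RAD33 (0.18), while CLB3 had 0.37, ARO9 -0.37 and COS9 -0.82.

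The depletion strain was also set against Rps3_TAP, in a fit over all 7 libraries that gives the lone Rps3_TAP library the spread estimated from the replicated groups. The spread of Rps3_TAP itself was not measured, so each call sets the depletion libraries against that single library and is not a test between strains. The strains differ in their constructs and in the doxycycline and medium shift listed for them, and total mRNA was not measured. Construct, treatment, mRNA amount and ribosome binding therefore cannot be told apart here. Of 602 T genes tested, 83 were called higher and 67 lower in Minus_Rps26 than in Rps3_TAP, beside 10.6% and 15.6% of all 5815 features (edgeR). Of 3298 A genes, 356 were called higher and 525 lower. The median log2 fold change was 0.30 for T genes and 0.12 for A genes. Between Plus_Rps26 and Rps3_TAP, 1 T gene was called higher and 6 lower, beside 0.206% and 1.27% of all features, with medians of 0.13 for T genes and 0.05 for A genes. Without Plus_Rps26 replicate 1 more genes were called in both directions, among T genes and all features alike. The medians were then 0.08 for T genes, -0.01 for A genes and 0.02 for all features. The comparisons share the Rps3_TAP library.

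YOR302W (chromosome XV, 882765 to 882842, plus strand) had the highest value among T genes that met the rule. It is the short upstream reading frame in the leader of the CPA1 mRNA, and its arginine attenuator peptide stalls ribosomes when arginine is plentiful. It had 13.3, 50.3 and 30.7 CPM in Minus_Rps26, 15.8, 35.3 and 31.2 in Plus_Rps26 and 2.22 CPM (22 counts) in Rps3_TAP. The log2 fold change was 3.82 for Minus_Rps26 over Rps3_TAP (SE 0.89, adjusted p = 0.0132, edgeR) and 3.62 for Plus_Rps26 over Rps3_TAP (SE 0.88, adjusted p = 0.0684). CPA1 itself, a subunit of carbamoyl phosphate synthetase and not a member, had 164, 663 and 408 CPM in Minus_Rps26, 204, 586 and 377 in Plus_Rps26 and 77.9 in Rps3_TAP. The CPA1 log2 fold change was 2.40 for Minus_Rps26 over Rps3_TAP (SE 0.83, adjusted p = 0.0544, edgeR), so the leader frame and the main frame of the transcript lay on the same side.

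SPO22, a meiotic chromosome protein, had 18.9, 33.9 and 28.3 CPM in Minus_Rps26, 18.9, 21.5 and 16.2 in Plus_Rps26 and 2.52 CPM (25 counts) in Rps3_TAP. It was called in both comparisons, with log2 fold changes of 3.42 (SE 0.60, adjusted p = 0.00476) and 2.90 (SE 0.58, adjusted p = 0.0409) in edgeR's test. IME2, a kinase that promotes meiosis, was the other T gene of the meiosis list and was called in Minus_Rps26 over Rps3_TAP (1.93, SE 0.54, adjusted p = 0.0271, edgeR). YCR099C had 13.55, 14.9 and 18.85 CPM in Minus_Rps26, 9.02, 7.76 and 11.9 in Plus_Rps26 and 1.61 CPM (16 counts) in Rps3_TAP, and its context overlaps another annotated gene.

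On the lower side, NRM1, a co-repressor of G1-phase transcription, had 10.3, 5.74 and 5.32 CPM in Minus_Rps26, 12.2, 9.89 and 6.06 in Plus_Rps26 and 68.0 in Rps3_TAP. Its log2 fold changes were -3.26 (SE 0.49, adjusted p = 0.00312) for Minus_Rps26 and -2.85 (SE 0.50, adjusted p = 0.0249) for Plus_Rps26 over Rps3_TAP, in edgeR's test. FMP46, a mitochondrial protein, had 8.59, 11.2 and 7.01 CPM in Minus_Rps26, 12.5, 29.6 and 17.3 in Plus_Rps26 and 91.15 in Rps3_TAP. MDM35, which carries lipid transfer proteins into the mitochondrial intermembrane space, had 18.5, 14.1 and 11.7 CPM in Minus_Rps26, 22.1, 36.4 and 19.1 in Plus_Rps26 and 137 in Rps3_TAP. All 3 genes were far below Rps3_TAP in each library of the depletion strain. YPC1, a ceramidase, had 50.4, 14.3 and 17.35 CPM in Minus_Rps26, 41.7, 113 and 192 in Plus_Rps26 and 338 in Rps3_TAP, and Minus_Rps26 replicate 1 stood apart from the other 2. PYK2, a pyruvate kinase isoform repressed by glucose, had 26.6, 36.1 and 35.95 CPM in Minus_Rps26, 23.35, 30.8 and 30.8 in Plus_Rps26 and 90.5 in Rps3_TAP, and was called lower in both comparisons (adjusted p = 0.0169 and 0.0494, edgeR).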

How the data were processed

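Per the labels' protocols, RNA extracted from purified ribosomes went through rRNA removal and a stranded total RNA kit. The submitters' processing notes name TopHat2 2.0.9, build sacCer3, DESeq and DESeq2. The authors deposited raw counts per feature for 7 libraries. How reads were counted, strand included, is not given in the sources used here, and values of genes that overlap others are uncertain. The authors' deposited table holds log2 fold changes and adjusted p-values, and one of its columns gave the 20 bases before each start codon. The series describes biological replicates.

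RefSeq's gene table for R64, the assembly of sacCer3, gave lengths and positions for the deposited names (5810 found by symbol, 242 by locus tag, 46 by synonym, 243 not found). Coding length is the annotated span, introns included. Genes were tested in R 4.3.3 by the quasi-likelihood method of edgeR 4.0.16, after trimmed-mean scaling and filtering with filterByExpr, and p-values were adjusted over all features by Benjamini-Hochberg (threshold 0.05). SE is the size of the log2 fold change over the square root of F. The 6 libraries of the depletion strain made up the fit for Minus_Rps26 over Plus_Rps26, and all 7 the fit for Rps3_TAP. Printed CPM were scaled over 7 libraries. Replicate ratios and the check for overlap between groups used CPM scaled over the 6 libraries of the depletion strain. The ratios used a pseudocount of 0.5 CPM. The code was tested on simulated counts. Alternatives were other scaling, DESeq2 1.42.0, no filter, protein-coding genes alone, lowess offsets against coding length, a replicate block and leaving out libraries. Per the labels' protocols the flowthrough comes from the bead purification, but they do not say that equal replicate numbers mark one lysate, and Plus_Rps26 replicate 2 carries flowthrough number 1 in its description, so the libraries were not treated as paired. Reads listed as not unique were 0 in replicate 3 of both groups and 11530659 or more in the others.

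The members and the gene lists were chosen with earlier results of these data known. Named genes were the called members with the 8 highest and the 8 lowest log2 fold changes (Minus_Rps26 over Plus_Rps26), given at least 10 CPM on average and groups that do not overlap, the 6 members with most CPM per kb, members of the alternative-start, Hog1 and Rim101 lists, the most abundant member of each other list, the 3 most abundant with A at -4, -2 and -1 and with G at -4, and the 3 highest and lowest called members in each comparison with Rps3_TAP. Levels were compared between genes only per kb of coding length.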

Additional observations from a re-analysis of the deposited data

How the results depend on the processing

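The counts of T genes called between Minus_Rps26 and Plus_Rps26 (57 higher, 21 lower) were 130 and 0 with total-count scaling. They were 88 and 53 with DESeq2 and 159 and 97 without both libraries of replicate 1. They were 0 and 0 with the length trend removed, with the replicate block and with both together, and 35 were lower with protein-coding genes alone. Over all features the counts (459 and 448) were 1042 and 37 with total-count scaling and 700 and 852 with DESeq2. Without both libraries of replicate 1 they were 1387 and 1284, and they were 0 and 0 in the settings that called no T gene. With protein-coding genes alone 580 of all features were lower. Total-count scaling moved the median log2 fold change of all features from 0.03 to 0.75, and that of T and A genes to 0.87 and 0.74. Leaving out each library gave 0 to 145 T genes higher and 0 to 85 lower, beside 0 to 1272 and 0 to 1223 of all features. For all features, total-count scaling moved the median log2 fold change of Minus_Rps26 over Rps3_TAP from 0.18 to 1.39. For T genes it moved from 0.30 to 1.52. That of Plus_Rps26 over Rps3_TAP moved from 0.07 to 0.55 for all features and from 0.13 to 0.61 for T genes. With the length trend removed the Minus_Rps26 medians were 0.04 for all features and 0.21 for T genes. The T counts below that changed moved in the same direction as those of all features. Against Rps3_TAP, the counts for Minus_Rps26 (83 and 67) were 189 and 10 with total-count scaling, 38 and 42 with the length trend removed, and 21 to 135 and 32 to 97 with a library left out. Those for Plus_Rps26 (1 and 6) were 0 and 0 with total-count scaling and 19 and 25 with DESeq2. They were 3 higher with protein-coding genes alone or the length trend removed, and 0 to 19 and 0 to 32 with a library left out. With total-count scaling 76 T genes were higher and 14 lower at an unadjusted p under 0.05 in edgeR.

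The difference between the T and A medians (0.14) was 0.056 with the length trend removed, 0.067 with the replicate block and that removal, 0.0027 against C or G genes, and 0.0055, -0.069, -0.014 and -0.033 within the 4 bins of level, which were added after seeing the data; it was 0.10 to 0.16 with a library left out. With total-count scaling the mean of the library medians of T genes was 42.0 CPM per kb in Minus_Rps26 and 20.2 in Plus_Rps26. The median in the Rps3_TAP library was 13.8. Among called named genes the sign of 3 turned with the length trend removed: TOM1 (-0.21, and -0.20 with the block), FMP27 (-0.15 in both) and, with the block as well, MSB2 (-0.0044). Of the values of named genes under all alternatives, 618 stayed on the same side of the threshold, 165 lost the call, 22 gained it and 5 values of called genes turned sign. Of the 618, 39 turned sign, 12 of them with total-count scaling and 9 each with the length trend removed alone and with the block as well. The fit with the replicate block called 0 T genes and 0 of all 5668 features. At an unadjusted p under 0.05 in edgeR it gave 202 T genes and 1990 of all features, against 206 and 2121 without the block. Deviations from the group means correlated at -0.20, 0.41 and 0.01 between libraries numbered 1, 2 and 3, and only those numbered 2 correlated best with their own number, so the numbers do not establish pairs. Other causes of these changes were not tested. Low counts in Rps3_TAP, such as 16 for YCR099C, limit the precision of the largest fold changes.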
